A study of Mus musculus with 24 samples.

Results

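The 39 genes described here encode proteins of the Fanconi anaemia pathway, of homologous recombination and of DNA end joining, together with the kinases and mediators that signal DNA breaks. They were chosen by gene symbol for their known roles, with earlier results of these data at hand, from the 23364 genes of the count tables. All 39 were among the 21456 genes that passed the filter on low counts. Total RNA was sequenced as 24 rRNA-depleted libraries from 3 populations of mouse bone marrow cells. All cells were lineage-negative and positive for Kit, Sca-1 and CD150, without Flt3. Haematopoietic stem cells (HSC) lacked both CD34 and CD48, the multipotent progenitors named MPP1 carried CD34 alone, and those named MPP2 carried both. KO libraries (n = 3 per cell type) came from Mysm1 fl/fl CreERT2 mice and Het libraries (n = 3) from Mysm1 +/fl CreERT2 mice, and both received 8 injections of tamoxifen at 0.15 mg per gram over 16 days. Sham libraries (n = 2) came from Mysm1 fl mice that received corn oil only. The labels do not say whether Sham mice carried the Cre, so that KO and Sham differ in the drug and may differ in the Cre as well as in Mysm1. The mice were C57BL/6 of both sexes, 8 to 12 weeks old. The inducible Cre is not described as limited to blood cells. The labels call the sexes pooled and do not give the number of mice behind a library, and the spread that the p-values rest on is that of libraries, not of single mice.

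The Fanconi anaemia pathway removes crosslinks between the DNA strands. A core complex of Fanconi proteins puts ubiquitin on the FANCI-FANCD2 pair, after which nucleases and the recombination proteins BRCA1, BRCA2 and PALB2 complete the repair. Homologous recombination copies the intact sister chromatid and works mainly in S and G2 phase, whereas end joining by the Ku proteins, DNA-PKcs, XRCC4 and DNA ligase IV rejoins broken ends without a template and works through the cell cycle. In blood formation, inherited loss of the Fanconi pathway in humans causes bone marrow failure, and most stem cells in adult mouse marrow are out of cycle. Mysm1, the gene deleted here, codes for an enzyme that takes ubiquitin off histone H2A.

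Promoter windows, from 250 bases before to 50 bases after the gene start, were taken from RefSeq (GRCm38.p6) and were found for 32 of the 39 genes. They were searched for sites of E2F, the factor family that drives genes of DNA replication, because many repair genes moved together between cell types. The forms searched on both strands were TTTCCCGC, TTTCGCGC, TTTGCCGC and TTTGGCGC. At least 1 of these forms was present in 7 of the 32 repair genes (21.9%), against 704 of all 27025 genes with a window (2.6%) and 524 of the 15408 genes with a window that were also tested (3.4%). Among genes higher in MPP2 than in HSC in Het mice, 4 of 18 windows held a form (22.2%), compared with 3 of 12 among those that did not pass that test (25%) and 0 of the 2 that were lower. CCAAT, the box bound by NF-Y, was present on either strand in 19 of 32 (59.4%), against 41.1% of all genes with a window and 42% of those also tested. TTTGAA, the core of the cell cycle homology region of G2 and M phase promoters, was present in 0 of 32. It was present in 20.2% of all genes with a window and 17.1% of those also tested. A match describes letters only, and its absence says nothing about binding. Of the windows printed below, those of Brca2, Topbp1 and Mdc1 were picked from genes with a form, by largest change or highest level. Trp53bp1 was the lower gene with the higher level. The printed windows therefore do not show how common a form is. The 4 windows are given 5′ to 3′ on the strand of the gene, with the E2F form in capitals (a match on the opposite strand appears as its reverse complement): Brca2 and Topbp1 are higher in MPP2 and hold a form 168 and 129 bases before the start, Mdc1 did not pass the test and holds one 16 bases before the start, and Trp53bp1 is lower in MPP2 and holds none.
Brca2 (chr5:150522371-150522670, plus strand): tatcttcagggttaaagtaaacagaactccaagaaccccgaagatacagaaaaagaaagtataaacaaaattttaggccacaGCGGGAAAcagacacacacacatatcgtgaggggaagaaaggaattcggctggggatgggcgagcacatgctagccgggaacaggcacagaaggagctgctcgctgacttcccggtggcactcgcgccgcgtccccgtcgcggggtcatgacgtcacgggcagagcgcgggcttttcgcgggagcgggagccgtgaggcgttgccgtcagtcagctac
Topbp1 (chr9:103305077-103305376, plus strand): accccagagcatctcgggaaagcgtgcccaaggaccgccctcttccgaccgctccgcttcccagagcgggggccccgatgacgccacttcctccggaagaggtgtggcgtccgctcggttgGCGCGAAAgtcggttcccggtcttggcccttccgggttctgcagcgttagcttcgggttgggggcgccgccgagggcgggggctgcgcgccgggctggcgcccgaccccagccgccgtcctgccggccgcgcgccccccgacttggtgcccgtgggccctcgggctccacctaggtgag
Mdc1 (chr17:35841248-35841547, plus strand): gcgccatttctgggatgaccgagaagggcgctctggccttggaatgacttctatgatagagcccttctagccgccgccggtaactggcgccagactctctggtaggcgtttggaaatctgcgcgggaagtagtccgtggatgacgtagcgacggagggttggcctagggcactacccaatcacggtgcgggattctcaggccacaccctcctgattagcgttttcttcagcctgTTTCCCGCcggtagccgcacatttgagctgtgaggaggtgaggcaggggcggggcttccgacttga
Trp53bp1 (chr2:121271358-121271657, minus strand): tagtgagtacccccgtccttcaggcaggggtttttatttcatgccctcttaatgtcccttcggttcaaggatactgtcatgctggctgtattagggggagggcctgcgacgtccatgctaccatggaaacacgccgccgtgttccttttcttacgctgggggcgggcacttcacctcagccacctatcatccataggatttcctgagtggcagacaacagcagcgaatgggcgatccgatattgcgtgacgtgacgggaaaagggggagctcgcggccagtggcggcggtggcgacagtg

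The libraries held 18823971 to 53196624 counts. Mysm1 was counted at 76.7 to 121 CPM (counts scaled to library size with TMM factors) in KO libraries, 98.5 to 138 CPM in Het libraries and 108 to 121 CPM in Sham libraries, so that its whole-gene counts, which include the exons left after removal of exon 3, do not separate the genotypes. The sort was visible in Cd48, at 13.8 to 56.9 CPM in MPP2 libraries, 0.35 to 2.81 CPM in MPP1 and 0 to 2.02 CPM in HSC. Some libraries stood apart. HSC KO library 1 and HSC Het library 2_3 had the fewest genes detected, 15740 and 15932. HSC KO library 1 had the highest level among the 8 HSC libraries for 28 of the 39 repair genes, and MPP1 KO library 1 the highest among the 8 MPP1 libraries for 24. MPP2 Het library 2_3 held 3014 CPM of 5 granulocyte and monocyte progenitor markers, against 20.2 to 255 CPM elsewhere. The lists of B cell, T and NK cell and macrophage markers each summed to at most 43.3 CPM in any library. The 8 neutrophil markers varied more. They summed to 1066 CPM in MPP1 Sham library 2_3, 612 CPM in MPP2 Het library 2_3 and 510 CPM in HSC Het library 2_3. In MPP2 they summed to 9.21 to 92.1 CPM in KO and 101 to 612 CPM in Het, without overlap. Their part in the results was not tested.

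Repair genes differed widely in level. Corrected for transcript length, Parp1, the sensor of DNA breaks that makes poly(ADP-ribose), was the highest at a mean of 110.4 CPM per kb over the 24 libraries and lay above 97.7% of the genes tested. Topbp1, the activator of ATR, followed at 67.8 CPM per kb, then Xrcc6 (Ku70) at 62.1 and Rad50, the ATPase of the MRN complex, at 54.6 CPM per kb. The lowest were Lig4, the ligase of end joining, at 1.07 CPM per kb, and Fancb, a core complex gene on the X chromosome, at 1.44 CPM per kb. The 8 core complex genes lay between 1.44 CPM per kb (Fancb, above 47.1% of the genes tested) and 9.02 CPM per kb (Fancl, above 71.7%). Fancf had 0 counts in HSC Het library 2_3, where 3 counts would be 0.0978 CPM, and every other gene was counted in every library. The 39 genes together made up 3915 to 4281 CPM in MPP2 KO, 3661 to 4098 CPM in MPP2 Het and 4039 to 4398 CPM in MPP2 Sham. In HSC the sums were 3732, 2696 and 2503 CPM in KO libraries 1, 2_3 and 4, against 2506, 2029 and 2317 CPM in Het libraries 1, 2_3 and 4 and 1863 and 1957 CPM in Sham libraries 2_3 and 4. All 8 HSC sums except that of KO library 1 lay below all MPP2 sums. A higher CPM can come from more of the cells expressing a gene or from more RNA per cell, and these cannot be told apart in bulk libraries.

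**Figure D1:**
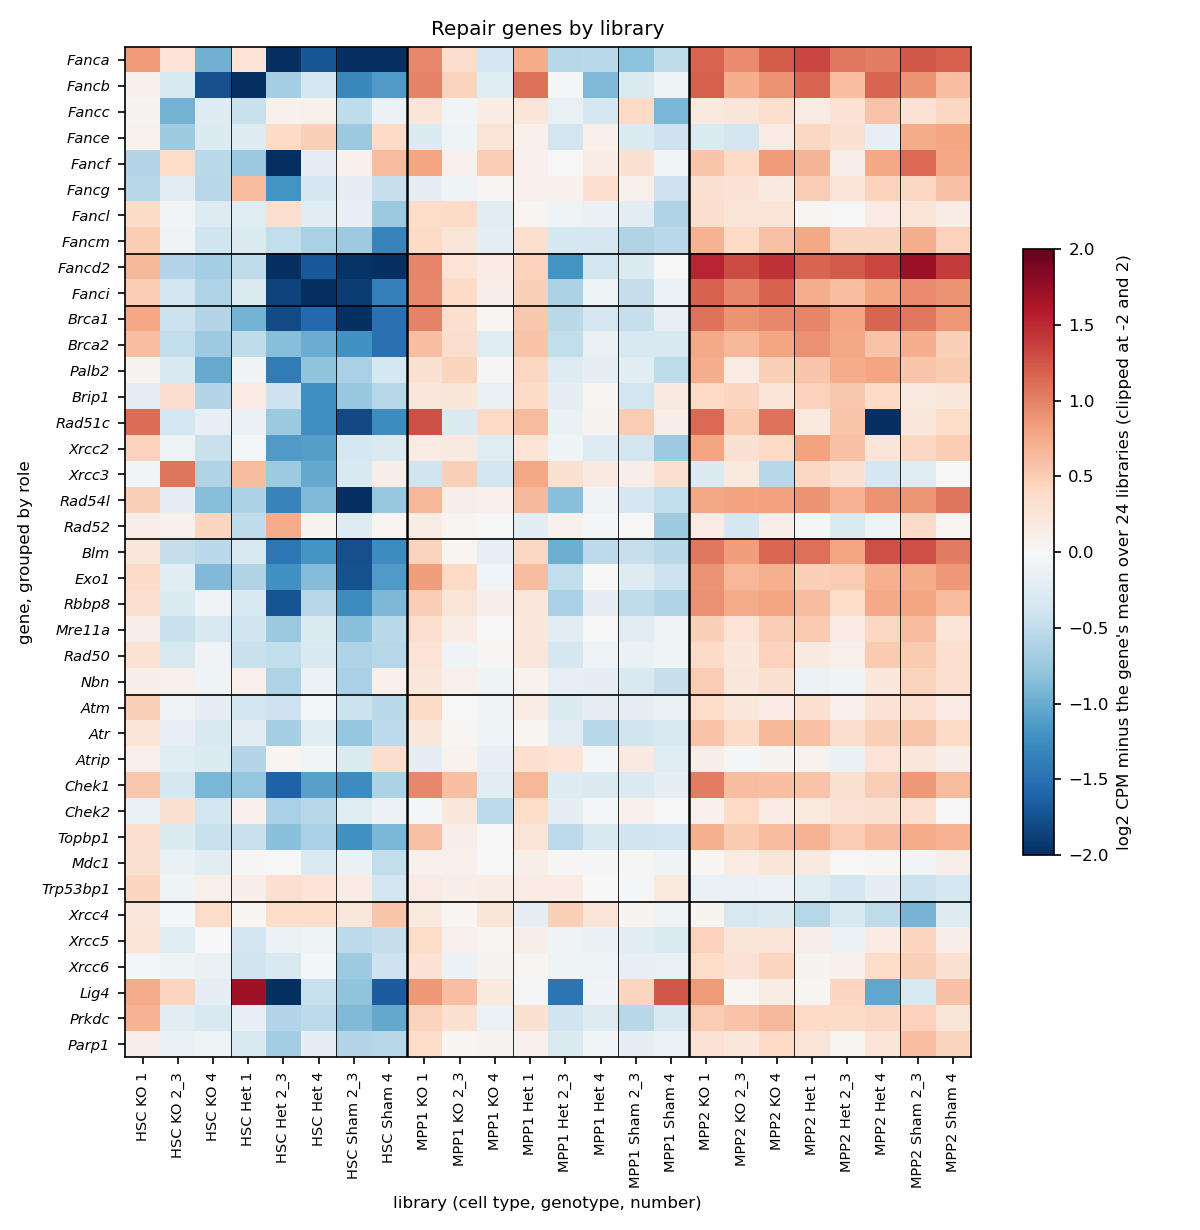
Repair genes by role (rows) in 24 libraries (columns), as log2 CPM minus the mean of the gene over all libraries, with colours limited to -2 and 2. Most rows are red in the 8 MPP2 libraries and blue in HSC Het and Sham libraries, HSC KO library 1 is redder than the other HSC libraries, and Trp53bp1 and Xrcc4 run the other way.

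The first question was how repair genes differ along the progenitor hierarchy in mice with a working copy of Mysm1. In Het mice 24 of the 39 genes were higher and 2 were lower in MPP2 than in HSC at an adjusted p under 0.05 (edgeR's quasi-likelihood test with Benjamini-Hochberg adjustment over all genes tested). Over all genes tested, 18.0% passed this test, with 9.59% higher and 8.37% lower. The median log2 change (MPP2 over HSC) of the 39 genes was 0.81, against -0.01 over all genes tested, and 34 of 39 were above 0. All MPP2 Het libraries were above all HSC Het libraries in 26 genes, against 16.2% of all genes, and below them in 2, against 11.9%. The genes that were higher ran from small changes in Xrcc6 and Atm to a 6.43-fold difference in Fancd2. Markers moved with the same comparison: 7 erythroid genes summed to 400 to 618 CPM in MPP2 Het libraries, against 14.1 to 255 CPM in HSC Het libraries. The 5 megakaryocyte and platelet markers summed to 538 to 1293 CPM in MPP2 Het and 245 to 417 CPM in HSC Het, and the 5 granulocyte and monocyte progenitor markers to 118 to 3014 CPM in MPP2 Het and 37.0 to 88.2 CPM in HSC Het. The 6 stem and progenitor sort genes summed to 647 to 880 CPM in MPP2 Het and 896 to 1171 CPM in HSC Het. The part of these cells in the result was not tested.

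Among the 8 core complex genes, 3 were higher in MPP2 in Het mice and 0 lower. Fancm, the translocase that brings the complex to DNA, had 66.5, 52.7 and 52.8 CPM in the 3 MPP2 Het libraries, against 32.1, 27.8 and 24.9 CPM in the 3 HSC Het libraries. The groups did not overlap, and the log2 change was 1.02 ± 0.22 (SE, adjusted p = 0.00116). Fanca had 52.0, 42.8 and 42.2 CPM in MPP2 Het, against 24.9, 4.14 and 6.23 CPM in HSC Het. HSC Het library 1 was the high one of the HSC libraries, and the log2 change of Fanca was 1.97 ± 0.60 (adjusted p = 0.0305). Fancb was higher by 1.95 ± 0.53 (adjusted p = 0.00870) at low levels of 9.78 to 14.4 CPM in MPP2 and 0.854 to 4.99 CPM in HSC. Fancc, Fance, Fancf, Fancg and Fancl, the last being the ubiquitin ligase of the complex, did not pass the test. Fancl averaged 16.3 ± 1.11 CPM in MPP2 Het and 15.6 ± 3.79 CPM in HSC Het (SD, n = 3 each), a log2 change of 0.07 ± 0.24 (SE).

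Both genes of the FANCI-FANCD2 pair, the substrate of the core complex, were higher in MPP2 Het. Fancd2 had 52.3, 54.8 and 59.2 CPM in MPP2 Het, against 16.3, 2.35 and 7.20 CPM in HSC Het. The MPP2 libraries lay close together and the HSC libraries spread widely, with a log2 change of 2.70 ± 0.59 (SE, adjusted p = 0.00365), the largest of the 39 genes. Fanci had 56.8, 52.2 and 59.6 CPM in MPP2 Het and 28.3, 9.46 and 8.03 CPM in HSC Het. Its log2 change was 1.89 ± 0.42 (adjusted p = 0.00408).

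Of the 9 genes of the BRCA and mediator group of recombination, 6 were higher in MPP2 Het and 0 lower. Brca1, which promotes resection of broken ends, had 141, 122 and 160 CPM in MPP2 Het, against 37.0, 20.6 and 24.3 CPM in HSC Het. Every MPP2 library was above every HSC library, and the log2 change was 2.37 ± 0.39 (SE, adjusted p = 0.000355). Brca2, which acts on the resected single strand, averaged 208 ± 24.9 CPM in MPP2 Het and 72.0 ± 12.8 CPM in HSC Het (SD, n = 3 each), a log2 change of 1.53 ± 0.31 (SE). Palb2, which joins BRCA1 to BRCA2, had 28.0, 31.8 and 32.8 CPM in MPP2 Het and 18.0, 7.17 and 10.8 CPM in HSC Het. Its log2 change was 1.37 ± 0.28 (adjusted p = 0.000708). The translocase gene Rad54l, the helicase gene Brip1 and the recombination gene Xrcc2 were also higher, with log2 changes of 0.86 to 1.76. The recombination genes Rad51c and Xrcc3, and Rad52, whose protein anneals single strands, did not pass the test. Rad52 averaged 15.3 CPM in MPP2 Het and 19.3 CPM in HSC Het, and the libraries overlapped.

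Of the 6 genes of end resection and helicases, 5 were higher. Blm, the helicase lost in Bloom syndrome, had 140, 112 and 159 CPM in MPP2 Het, against 52.2, 23.9 and 28.5 CPM in HSC Het, a log2 change of 1.98 ± 0.34 (SE, adjusted p = 0.000488). Rbbp8 (CtIP), which starts resection, had 113, 95.4 and 124 CPM in MPP2 Het and 59.5, 22.2 and 49.9 CPM in HSC Het. Its log2 change was 1.34 ± 0.26 (adjusted p = 0.000836). The MRN complex, which holds and trims broken ends, consists of the products of Mre11a, Rad50 and Nbn. All had higher means in MPP2 Het, and a difference between them was not tested. Mre11a had 117, 91.2 and 109 CPM in MPP2 Het and 61.7, 48.8 and 67.6 CPM in HSC Het, a log2 change of 0.83 ± 0.17 (adjusted p = 0.000602). Rad50 averaged 332 ± 52.7 CPM in MPP2 Het and 206 ± 14.4 CPM in HSC Het (SD, n = 3 each), with a log2 change of 0.69 ± 0.16 (SE). Nbn, the third subunit, averaged 65.8 CPM in MPP2 Het and 57.6 CPM in HSC Het and did not pass the test. The exonuclease gene Exo1 was higher by 1.44 ± 0.29.

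Of the 8 checkpoint kinases and mediators, 5 were higher and 1 was lower. Topbp1 had 517, 454 and 490 CPM in MPP2 Het, against 234, 179 and 203 CPM in HSC Het. The groups lay far apart, and the log2 change of 1.24 ± 0.19 (SE) had the smallest adjusted p of the 39 genes (2.49e-05). Atr, the kinase of stalled forks, had 176, 149 and 162 CPM in MPP2 Het and 100, 73.7 and 98.4 CPM in HSC Het, a log2 change of 0.84 ± 0.16 (adjusted p = 0.000412). Its partner gene Atrip averaged 21.5 CPM in MPP2 Het and 18.1 CPM in HSC Het and did not pass the test. The ATR target kinase gene Chek1 was higher by 1.58 ± 0.35, while the break kinase gene Atm and its target Chek2 were higher by 0.50 ± 0.16 and 0.61 ± 0.20. Mdc1, a scaffold at breaks, averaged 175 CPM in MPP2 Het and 156 CPM in HSC Het, with overlapping libraries. Trp53bp1 (53BP1), which limits resection and favours end joining, had 108, 102 and 113 CPM in MPP2 Het, against 141, 161 and 155 CPM in HSC Het. All 3 MPP2 libraries were below all 3 HSC libraries, and the log2 change was -0.50 ± 0.14 (adjusted p = 0.0127).

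Of the 6 genes of end joining and break sensing, 3 were higher and 1 was lower. Parp1 averaged 470 ± 41.2 CPM in MPP2 Het and 317 ± 57.0 CPM in HSC Het (SD, n = 3 each), a log2 change of 0.57 ± 0.15 (SE). Prkdc, which encodes DNA-PKcs, was higher by 0.81 ± 0.21 and Xrcc6 (Ku70) by 0.41 ± 0.14. Xrcc5 (Ku80), the partner of Ku70, averaged 58.8 CPM in MPP2 Het and 49.4 CPM in HSC Het and did not pass the test. Xrcc4, the scaffold of DNA ligase IV, was lower in MPP2, with 17.2, 20.7 and 18.0 CPM in MPP2 Het and 26.4, 33.1 and 33.2 CPM in HSC Het. The groups did not overlap, and the log2 change was -0.73 ± 0.21 (adjusted p = 0.0110). Lig4 itself did not pass the test, at 1.76 to 4.96 CPM in MPP2 Het and 0.717 to 12.1 CPM in HSC Het.

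The count of 26 genes ran from 18 to 25 when any single library was left out, and the share of all genes from 13% to 19.6%. Without HSC Het library 2_3 the calls of Fanca, Brip1, Atm, Chek2, Trp53bp1, Xrcc6, Prkdc and Parp1 were lost. In that fit 13% of all genes passed, against 18% with all libraries. Exons of Trp53bp1, Xrcc4, Xrcc6, Fanca, Fancd2, Fanci, Rad54l, Atr and 4 of the other genes overlap those of a gene on the opposite strand (12 to 2130 bases shared), and those of Atrip overlap Trex1 on the same strand. The strand setting of the counting is not given in the sources used here, so reads of such pairs may be shared.

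**Figure D2:**
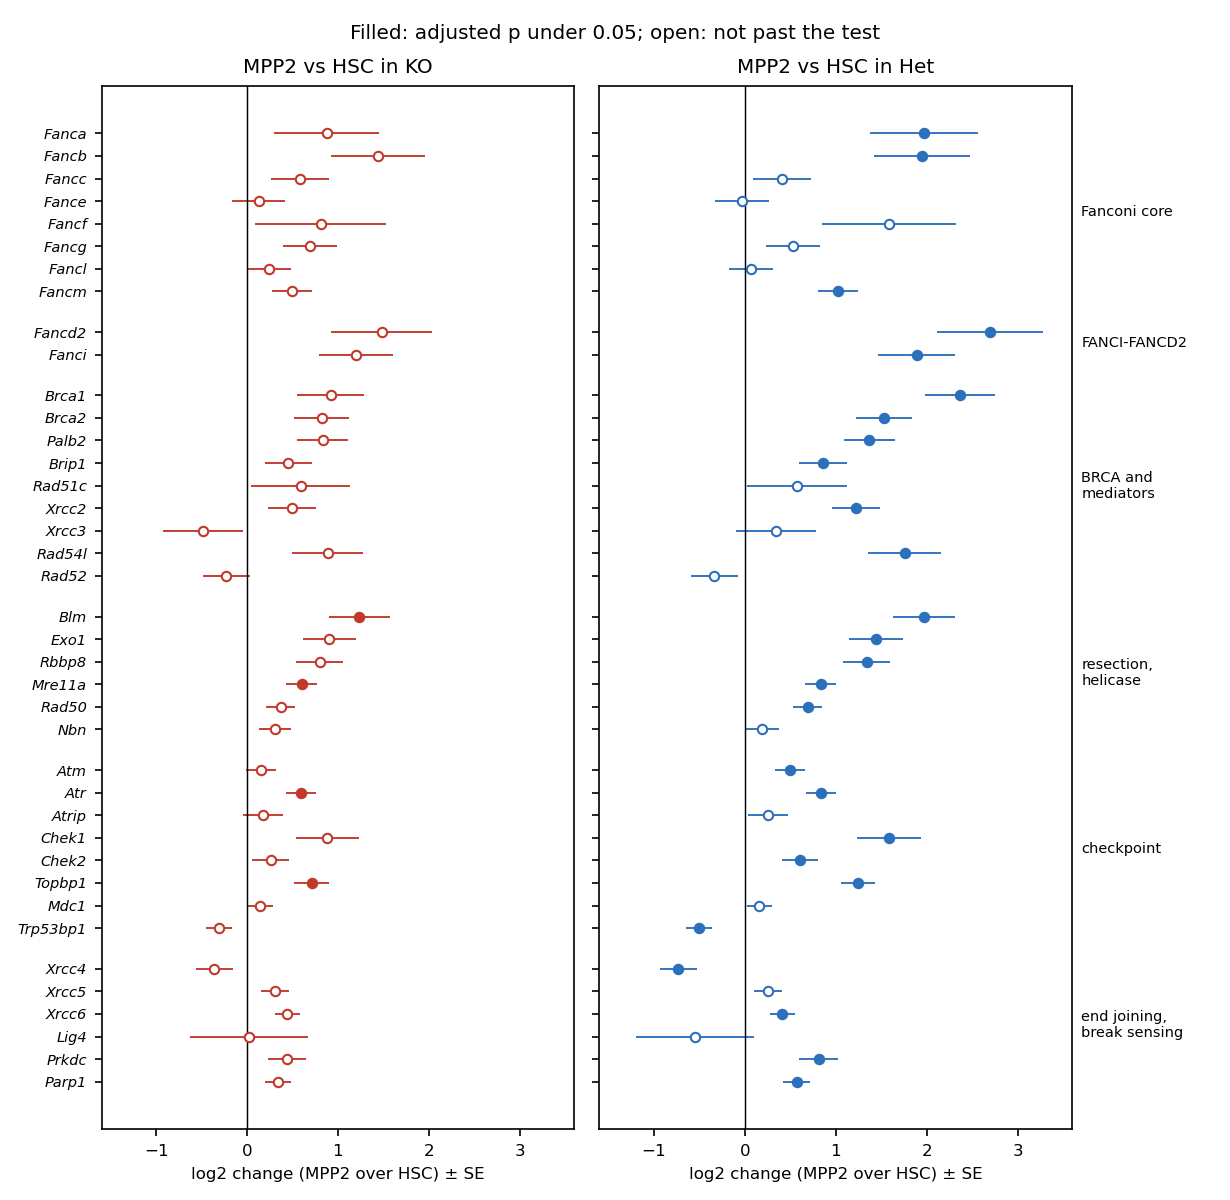
Log2 change (MPP2 over HSC) with its standard error for the 39 genes in KO mice (left) and Het mice (right), grouped by role, with filled points at an adjusted p under 0.05. Filled points are 4 in KO and 26 in Het, and Trp53bp1 and Xrcc4 lie left of 0 in both panels.

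MPP1 lay between the other populations for most genes. The mean CPM followed the order HSC, MPP1, MPP2 from low to high in 32 of 39 genes in KO mice, 29 in Het and 28 in Sham mice, whereas 22.3%, 23.1% and 22.3% of all genes tested had that order. Topbp1 averaged 205 ± 27.3 CPM in HSC, 287 ± 84.1 CPM in MPP1 and 487 ± 31.4 CPM in MPP2 of Het mice (SD, n = 3 each). The neighbours in this order were not all apart. By edgeR, 0 of the 39 genes passed the test for MPP1 over HSC in Het mice (0.0140% of all genes passed). Of the 39, 16 had an unadjusted p under 0.05, as did 2123 of all 21456 genes. In DESeq2, 2 passed (0.989% of all genes), as did 2 by edgeR without HSC Het library 1 (0.473%). The smallest p values there belonged to Brca1, with a log2 change of 1.35 ± 0.37 (adjusted p = 0.276 by edgeR's quasi-likelihood test), with 69.5 CPM in MPP1 and 27.3 CPM in HSC, and to Chek1, with 1.23 ± 0.35. For MPP2 over MPP1 in Het mice, 3 genes were higher and 1 was lower, against 7.49% of all genes in either direction (3.23% higher and 4.26% lower). Atr was higher by 0.70 ± 0.16 (adjusted p = 0.00673), Topbp1 by 0.76 ± 0.19 and Blm by 1.32 ± 0.33, and Xrcc4 was lower by a log2 change of -0.67 ± 0.21. This count fell to 0 without MPP1 Het library 4, was 1 without MPP1 Het library 2_3 or MPP2 Het library 1 and 2 without MPP2 Het library 4, and was 9 without MPP1 Het library 1. The share of all genes past the test was 3.13% without MPP1 Het library 4 and 10.6% without MPP1 Het library 1. In the fits that gave 1 or 2 genes it was 2.74% to 3.99%. Both comparisons use the 3 MPP1 Het libraries, on opposite sides, and each shares its other Het libraries with MPP2 over HSC.

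**Figure D3:**
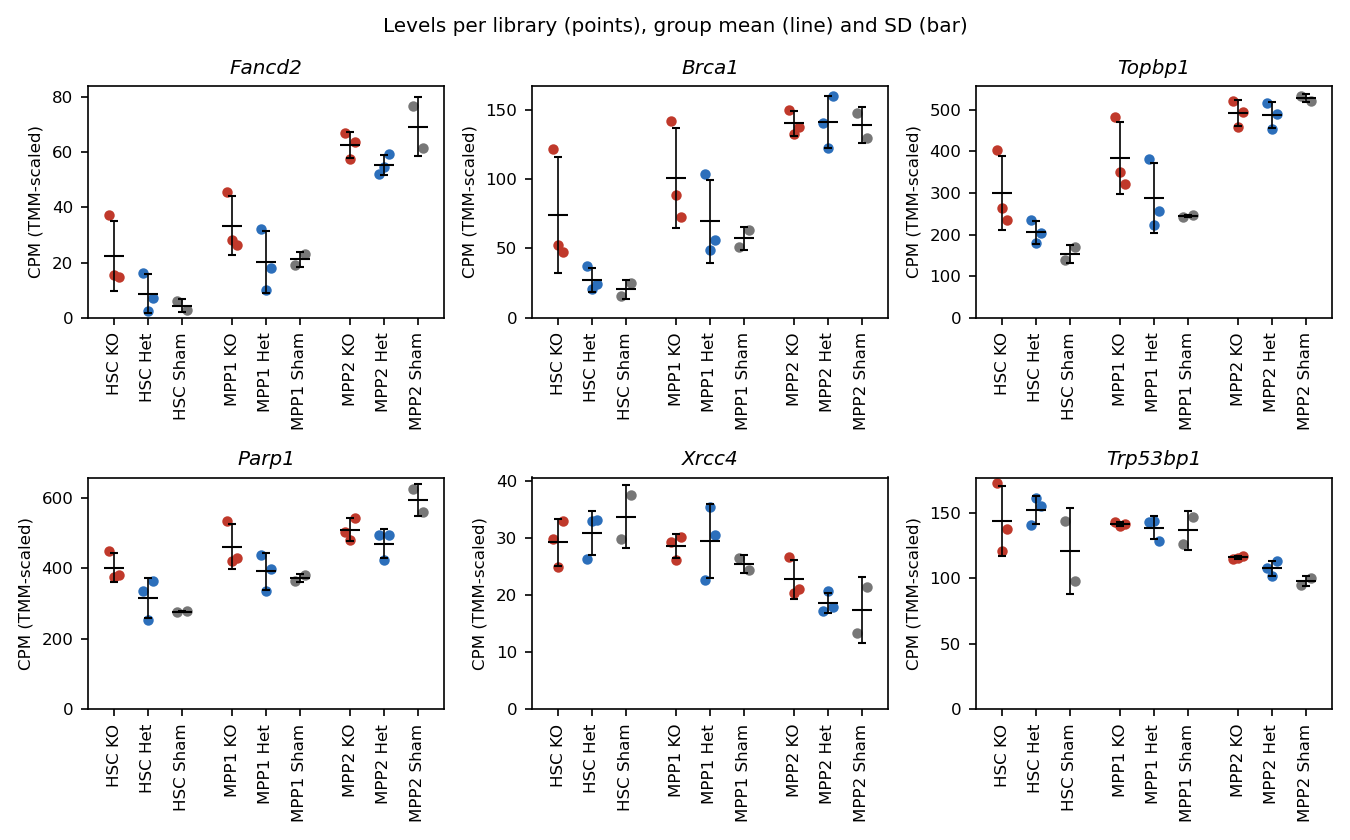
CPM per library (points) of 6 repair genes in 9 groups, with the group mean (line) and SD (bar). Fancd2, Brca1, Topbp1 and Parp1 are higher in MPP2 than in HSC in each genotype, Xrcc4 and Trp53bp1 have lower means in MPP2, and KO library 1 is the top point of Brca1 in HSC and MPP1.

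The study's main comparison asks what loss of Mysm1 does to these cells, and for the repair genes KO and Het were set side by side within each population. In HSC, 0 of 39 genes passed the test in KO against Het (0.615% of all genes passed). Of the 39, 15 had an unadjusted p under 0.05, as did 3106 of all 21456 genes. In DESeq2, 1 gene, Brca1, passed (2.85% of all genes). A fit with a block for the library number passed 6, Brca1, Fanci, Rbbp8, Chek1, Topbp1 and Xrcc2 (3.38% of all genes). The labels do not say that the numbers pair libraries. The median log2 change (KO over Het) was 0.36, against 0.03 over all genes tested, and 33 of 39 were above 0. Brca1 came nearest the threshold. It had 122, 52.5 and 47.6 CPM in HSC KO libraries 1, 2_3 and 4, against 37.0, 20.6 and 24.3 CPM in HSC Het libraries 1, 2_3 and 4. All KO libraries were above all Het libraries and library 1 stood out, with a log2 change of 1.44 ± 0.37 (SE, adjusted p = 0.0874 by edgeR's quasi-likelihood test). Without HSC KO library 1 the log2 change of Brca1 was 0.88 (adjusted p = 0.392) and the median of the 39 genes 0.19. Topbp1 had 402, 265 and 234 CPM in HSC KO and 234, 179 and 203 CPM in HSC Het, a log2 change of 0.55 ± 0.19 (adjusted p = 0.172), which was 0.28 without HSC KO library 1. Groups did not overlap, with KO higher, in 4 of the 39 genes (Brca1, Topbp1, Rbbp8 and Parp1), against 7.16% of all genes tested. Without HSC Het library 1, the Het library with 255 CPM of erythroid markers, Fanci, Xrcc2, Fanca and Rbbp8 passed the test and the median was 0.63. In that fit 1.75% of all genes passed.

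By role, the medians of KO over Het in HSC were 1.25 (log2) for the FANCI-FANCD2 pair, 0.68 for the BRCA and mediator group, 0.54 for resection and helicases, 0.31 for checkpoint genes, 0.26 for the core complex and 0.18 for end joining. Fancd2 had 37.1, 15.5 and 14.6 CPM in HSC KO, against 16.3, 2.35 and 7.20 CPM in HSC Het, and Fanci 48.5, 26.5 and 22.3 CPM in HSC KO, against 28.3, 9.46 and 8.03 CPM in HSC Het. In both genes the groups overlapped only through Het library 1, and neither passed the test (log2 changes of 1.39 ± 0.56 and 1.10 ± 0.42). Fance had the lowest change of the 39 genes, -0.51 on the log2 scale.

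In MPP1, 0 of 39 genes passed the test in KO against Het (0.0559% of all genes passed), and 0 passed in DESeq2. Of the 39, 1 had an unadjusted p under 0.05, as did 1860 of all 21456 genes. The median log2 change was 0.24, against -0.11 over all genes, and it was 0.11 without MPP1 KO library 1, 0.13 and 0.15 without MPP1 Het libraries 2_3 and 4, and 0.37 without MPP1 Het library 1. Topbp1 had 482, 350 and 321 CPM in MPP1 KO and 382, 223 and 256 CPM in MPP1 Het, a log2 change of 0.42 ± 0.19 (adjusted p = 0.560 by edgeR's quasi-likelihood test), which was 0.25 without MPP1 KO library 1 and 0.68 without MPP1 Het library 1. Rbbp8 had 104, 87.9 and 80.4 CPM in MPP1 KO and 86.6, 47.2 and 64.5 CPM in MPP1 Het. In both genotypes library 1 was the highest for these genes, and the groups overlapped through Het library 1.

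In MPP2, the test of KO against Het passed 0 of 39 genes (0.415% of all genes passed), and 0 passed in DESeq2. Of the 39, 0 had an unadjusted p under 0.05, against 1207 of all 21456 genes. The median log2 change was 0.06, against -0.06 over all genes. All KO libraries were above all Het libraries in 7 of the 39 genes (Nbn, Xrcc5, Fanci, Fancl, Chek1, Prkdc and Trp53bp1), against 9.06% of all genes. Fanci had 78.1, 67.4 and 78.0 CPM in MPP2 KO and 56.8, 52.2 and 59.6 CPM in MPP2 Het, a log2 change of 0.41. Brca1 averaged 140 ± 9.04 CPM in MPP2 KO and 141 ± 18.8 CPM in MPP2 Het, and Topbp1 492 ± 31.7 CPM in MPP2 KO and 487 ± 31.4 CPM in MPP2 Het (SD, n = 3 each). The smallest p values belonged to Nbn, with 92.9, 76.4 and 80.6 CPM in MPP2 KO and 59.9, 62.4 and 75.2 CPM in MPP2 Het (log2 change 0.34 ± 0.18), and to Rad51c, with 9.66, 6.27 and 9.32 CPM in MPP2 KO and 5.03, 6.46 and 0.98 CPM in MPP2 Het. Nbn did not overlap between the groups and Rad51c did.

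**Figure D4:**
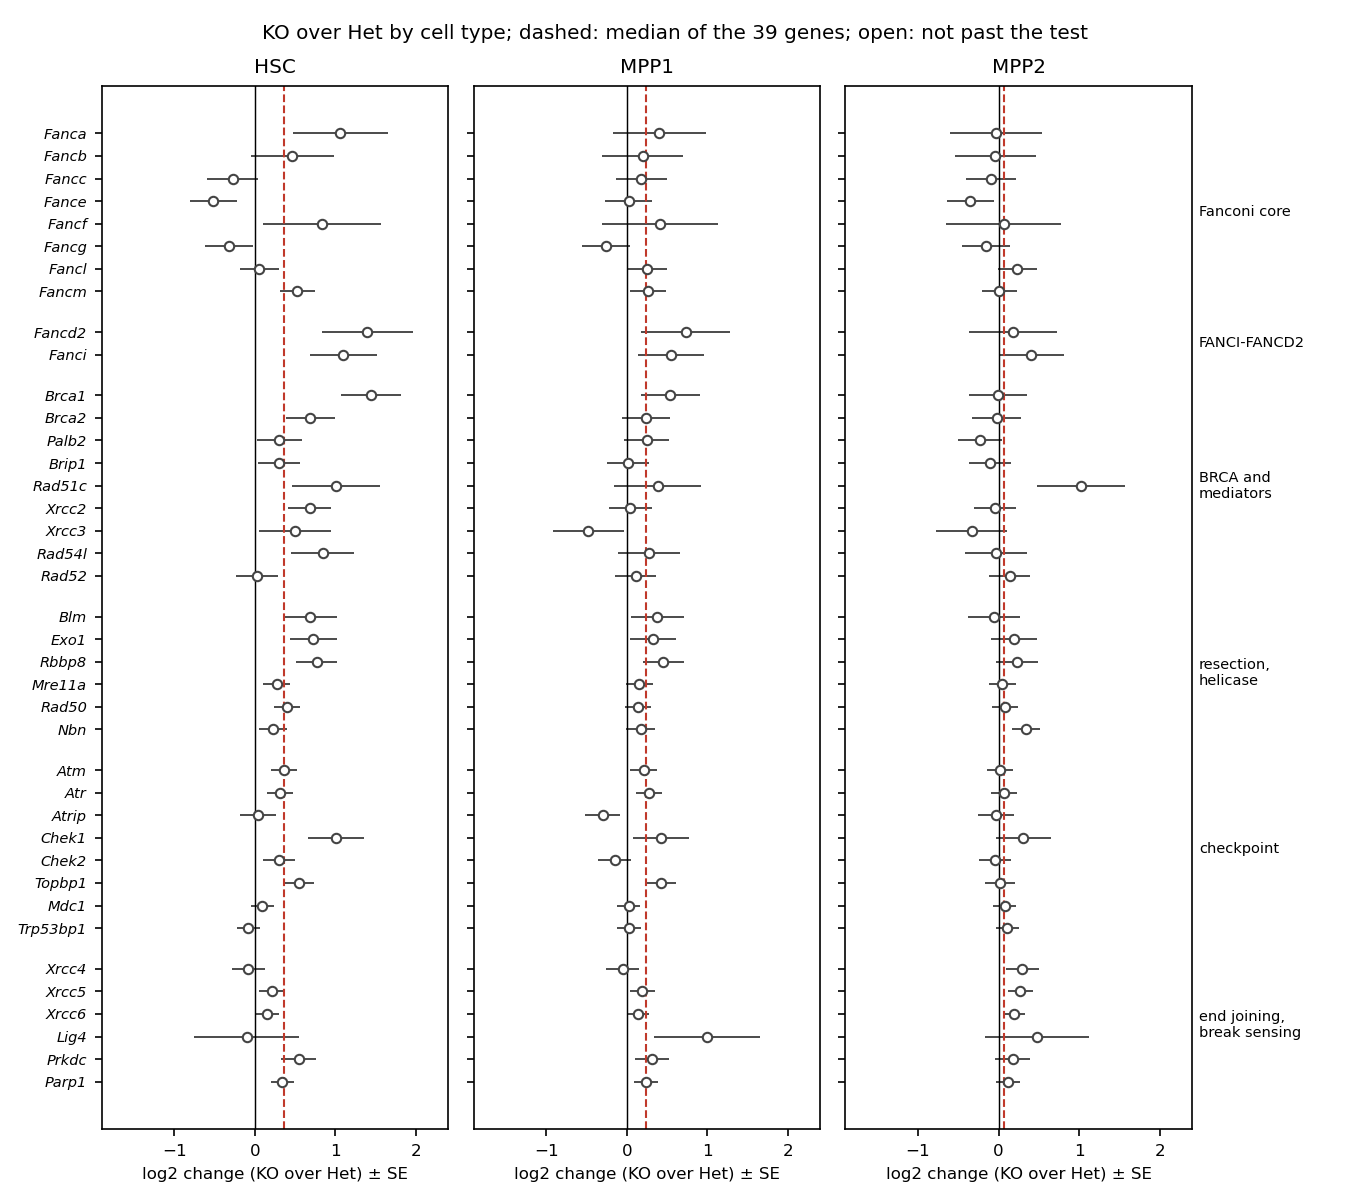
Log2 change (KO over Het) with its standard error for the 39 genes in HSC, MPP1 and MPP2, with the median of the 39 genes as a dashed line. All points are open, since 0 genes passed the test, and the medians are 0.36, 0.24 and 0.06.

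Whether the KO effect differed between populations was tested directly. The difference of the KO over Het change in MPP2 minus that in HSC passed the test for 0 of 39 genes (0.0326% of all genes passed). In DESeq2, 0 of the 39 passed. An unadjusted p under 0.05 was found for 1 of the 39 and 1565 of all 21456 genes. The median difference was -0.34, against -0.10 over all genes. Brca1 had the smallest p, with a difference of -1.45 ± 0.52 on the log2 scale (adjusted p = 0.573 by edgeR's quasi-likelihood test). For MPP1 minus HSC, 0 of 39 passed (0% of all genes, and 0 of the 39 in DESeq2), with a median of -0.26, against -0.10 over all genes. An unadjusted p under 0.05 was found for 0 of the 39 and 1044 of all 21456 genes. Without HSC KO library 1 the medians were -0.14 for MPP2 minus HSC and 0.01 for MPP1 minus HSC. Without HSC KO library 1 and HSC Het library 2_3 together they were -0.03 for MPP2 minus HSC and 0.12 for MPP1 minus HSC. Seen from the other side, MPP2 over HSC within KO mice gave 4 higher and 0 lower genes, against 6.04% of all genes in either direction and 3.39% higher: Topbp1 (492 CPM in MPP2 KO and 300.4 CPM in HSC KO, log2 change 0.71 ± 0.19), Atr (0.59 ± 0.16), Mre11a (0.60 ± 0.17) and Blm (1.23 ± 0.33). The median log2 change was 0.50, against -0.17 over all genes. This count was 14 and the median 0.77 without HSC KO library 1, and the count was 0 without HSC KO library 2_3 or 4 or without MPP2 KO library 1 or 4. The share of all genes past the test was 8.6% without HSC KO library 1 and 1.77% to 2.47% in the fits that gave 0. The fold of mean CPM in MPP2 over HSC had a median of 1.41 in KO, 1.75 in Het and 2.05 in Sham mice over the 39 genes. The KO folds include HSC KO library 1, the highest HSC library for 28 of the 39 genes. On the log2 scale the KO median was 0.50 with that library and 0.77 without it, and the Het median was 0.81. MPP2 over HSC was not tested in Sham mice. Fancd2 had the largest fold of the 39 genes in each genotype, 2.79 in KO, 6.43 in Het and 16.1 in Sham mice. Its Sham fold rests on 2 HSC Sham libraries at 2.64 and 5.96 CPM. The order of the genotypes differed between genes, and Palb2 had folds of 1.78 in KO, 2.57 in Het and 2.05 in Sham mice.

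Against Sham, which lacks a library numbered 1, KO HSC had 4 higher and 0 lower repair genes (2.28% of all genes passed in either direction, 1.90% higher). Topbp1 had 402, 265 and 234 CPM in HSC KO and 138 and 169 CPM in HSC Sham, a log2 change of 0.97 ± 0.22 (adjusted p = 0.0173 by edgeR's quasi-likelihood test). Prkdc had 185, 97.6 and 91.7 CPM in HSC KO and 61.7 and 55.7 CPM in HSC Sham, a log2 change of 1.09 ± 0.25 (adjusted p = 0.0200). Fancm had 55.6, 37.2 and 29.5 CPM in HSC KO and 23.5 and 15.4 CPM in HSC Sham (1.07 ± 0.25). In all 3 genes every KO library was above both Sham libraries, and KO library 1 was the highest. The KO libraries were all above the Sham libraries in 21 of the 39 genes, against 15.8% of all genes. Brca1, with 15.7 and 25.3 CPM in HSC Sham, was higher in HSC KO by 1.86 ± 0.44. Without HSC KO library 1 the count was 0 (0.304% of all genes) and the 4 log2 changes were 0.69 to 1.29. The count was 7 without HSC KO library 2_3 (2.81% of all genes) and 9 without HSC KO library 4 (2.73%). The median log2 change of the 39 genes was 0.57 with all libraries. It was 0.48 without HSC Sham library 2_3 and 0.66 without HSC Sham library 4, fits that keep a single HSC Sham library. In a fit with HSC libraries alone 0 passed (0.996% of all genes), whereas DESeq2 called 18 (5.04% of all genes). In MPP1, all KO libraries were above both Sham libraries in 24 of the 39 genes, against 18.6% of all genes, and the median log2 change was 0.41, against -0.11 over all genes. In MPP1 and MPP2, 0 of 39 genes passed in KO against Sham (0.121% and 0.629% of all genes passed), and 0 passed in DESeq2. Of the 39, 9 and 1 had an unadjusted p under 0.05, as did 2227 and 1229 of all 21456 genes. Het against Sham passed 0 of 39 genes and 0% of all genes in each population. In HSC, MPP1 and MPP2, 6, 0 and 1 of the 39 had an unadjusted p under 0.05. Of all 21456 genes, 1485, 207 and 1141 did. The median log2 changes were 0.30, 0.23 and -0.10 in that order, against 0.05, 0.03 and 0.14 over all genes. The medians of the 39 genes moved both ways when single libraries were left out. The MPP1 median was 0.01 without MPP1 Het library 1 and 0.30 without MPP1 Het library 2_3. The HSC median was 0.19 without HSC Het library 1, 0.15 without HSC Sham library 2_3 and 0.39 without HSC Sham library 4. The MPP2 median was -0.03 without MPP2 Het library 2_3, -0.06 without MPP2 Sham library 2_3 and -0.14 without MPP2 Het library 1. The 3 genotype comparisons of a population share libraries, and the HSC Het libraries also stand in the comparisons of MPP2 and MPP1 with HSC.

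Other genes of the same pathways and genes of the cell cycle were read beside the members. Of 60 further repair genes, 32 were higher and 0 lower in MPP2 than in HSC of Het mice, with a median log2 change of 0.62. Over all genes tested, 9.59% were higher and 8.37% lower. Clspn (claspin), which couples ATR to CHK1, was higher by 1.89 ± 0.23, the helicase gene Recql by 1.30 ± 0.18 and Usp1, whose product removes ubiquitin from FANCD2, by 1.46 ± 0.20, all 3 among the 4 smallest adjusted p of the list. In KO against Het HSC, Clspn was higher by 1.06 ± 0.23 (adjusted p = 0.0302 by edgeR's quasi-likelihood test). Of the 60 genes, 2 were higher and 0 lower, against 69 and 63 of all 21456 genes tested.

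Cell cycle genes moved with the repair genes in the same libraries. In MPP2 over HSC of Het mice, 31 of 33 S phase genes and 36 of 36 genes of G2 and M phase were higher, against 9.59% of all genes. Their median log2 changes were 1.33 and 2.63, against 0.81 for the 39 repair genes. In KO over Het HSC, 4 of 33 S phase genes (Mcm2, Prim1, Chaf1a and Mcm3) and 2 of 36 G2 and M phase genes (Cdc20 and Ndc80) were higher, with medians of 0.85 and 1.27, against 0.36 for the repair genes. Of all 21456 genes tested, 69 were higher. Without HSC KO library 1, 0 genes of both lists and 0 of the 60 further repair genes passed. The share of all genes past the test also fell, from 0.615% to 0.0561%. The medians of the S phase and the G2 and M phase genes were then 0.55 and 0.92. The median log2 CPM of the G2 and M phase genes was 6.16, 5.61 and 5.02 in HSC KO libraries 1, 2_3 and 4, 4.99, 4.19 and 4.32 in HSC Het libraries 1, 2_3 and 4, and 3.66 and 4.10 in HSC Sham libraries 2_3 and 4. The corresponding median of the repair genes was 5.80, 5.35 and 4.89 in HSC KO, 5.01, 4.48 and 4.64 in HSC Het, and 4.26 and 4.71 in HSC Sham. The part of cell cycle state in the repair gene differences was not tested. Of the 5 megakaryocyte and platelet markers, the sum was 714 to 950 CPM in HSC KO libraries, against 245 to 417 CPM in HSC Het and 354 to 358 CPM in HSC Sham, and its part was not tested either.

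**Figure D5:**
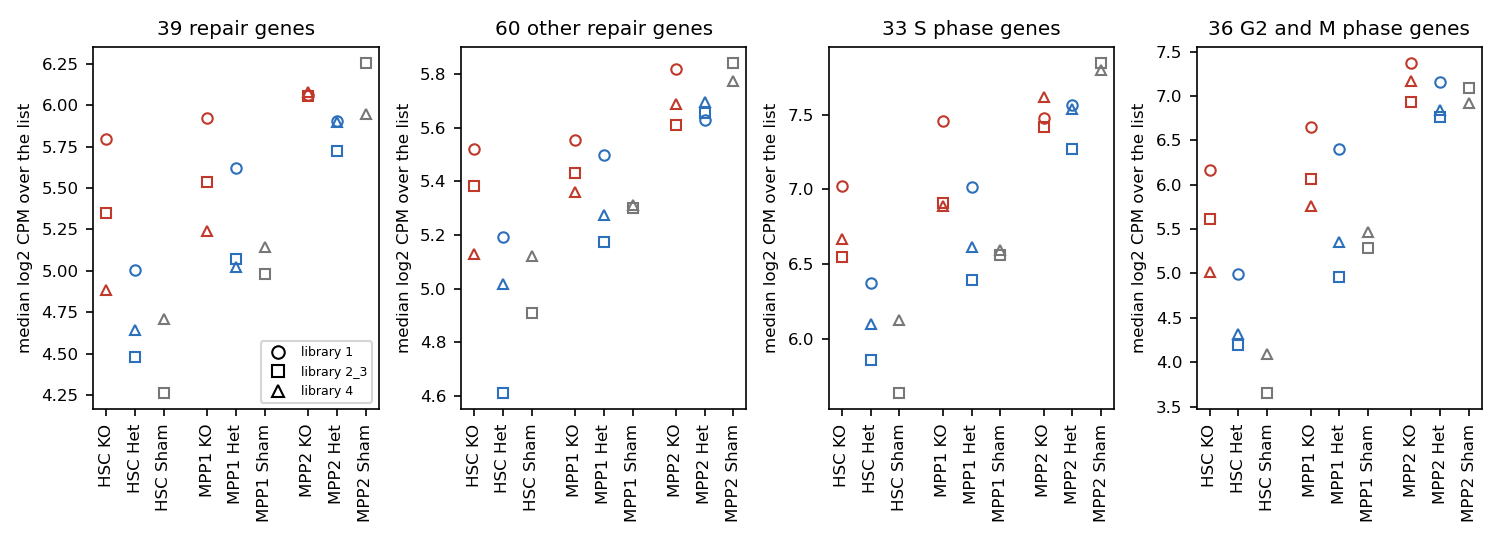
Median log2 CPM per library of the 39 repair genes, 60 further repair genes, 33 S phase and 36 G2 and M phase genes in 9 groups, with marker shape for the library number. All 4 lists lie higher in MPP2 than in HSC of the same genotype, and library 1 (circle) is the highest in HSC KO and HSC Het.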

How the data were processed

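RNA-seq counts per gene were deposited for 24 libraries. Per the submitters' processing notes, the mouse build was mm9, and the tools named are featureCounts, edgeR, TopHat2 (version 2.0.9), R (version 3.1.2), Trimmomatic (version 0.33), Bowtie (version 1.0.0) and FastQC, with no role given. The authors' counts had rRNA genes left out, going by the names of the deposited tables. A table of normalized values by the authors was not used.

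Counts of 23364 genes were filtered (filterByExpr, minimum count 10), scaled with TMM and fitted with edgeR 4.0.16 (R 4.3.3, limma 3.58.1) as 1 model of 9 groups with 15 residual degrees of freedom and robust quasi-likelihood tests. P-values were adjusted by Benjamini-Hochberg over 21456 genes, with a threshold of 0.05. Standard errors are the absolute log2 change over the square root of F. Values of log2 CPM used a prior count of 2. Library totals of 18823971 to 53196624 counts limit the precision of genes of a few CPM.

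The 39 genes, their roles and all lists were chosen with earlier results of these data known. The naming rule gave full statistics to at most 8 called genes of a comparison by smallest adjusted p, or to the 2 with the smallest p where none passed, and levels to the gene of each role with the highest mean CPM. Fanca, Fancb, Fancd2, Fanci, Trp53bp1 and Xrcc4 were given in the same detail outside this rule, chosen after their values were seen. The alternatives were RLE scaling, no low-count filter, a replicate block, DESeq2 1.42.0, fits within 1 cell type and fits without single libraries. Exon overlaps use mm9 gene models, and promoter windows use RefSeq, GRCm38.p6. Results for 1 further repair gene are not reported here.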

Additional observations from a re-analysis of the deposited data

How the results depend on the processing

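No named change that had passed the test changed sign under an alternative. For MPP2 against HSC in Het mice the same 26 genes passed under RLE scaling, without the low-count filter, under a replicate block and in DESeq2. In these fits 16.6% to 20.3% of all genes passed. Without HSC KO library 1 and HSC Het library 2_3, 20 genes passed (14.1% of all genes). Without single libraries, the number of genes past the test ran from 0 to 4 (KO against Het in HSC), 0 to 9 (KO against Sham in HSC), 0 to 2 (MPP1 against HSC in Het), 18 to 25 (MPP2 against HSC in Het), 0 to 9 (MPP2 against MPP1 in Het) and 0 to 14 (MPP2 against HSC in KO), and stayed at 0 in the others. In the same order, the share of all genes ran from 0.0561% to 1.75%, 0.304% to 2.81%, 0% to 0.473%, 13% to 19.6%, 2.74% to 10.6% and 1.77% to 8.6%. Fits that keep a single Sham library are not counted here.

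DESeq2 passed 1 gene in KO against Het HSC, 18 in KO against Sham HSC, 2 in MPP1 against HSC and 9 in MPP2 against MPP1 in Het, and 14 in MPP2 against HSC in KO. In the same order, it passed 2.85%, 5.04%, 0.989%, 11.1% and 9.77% of all genes. By edgeR these shares were 0.615%, 2.28%, 0.014%, 7.49% and 6.04%. KO against Sham in HSC gave 0 with HSC libraries alone (0.996% of all genes), and 1 without HSC KO library 1 and HSC Het library 2_3 (0.561%). MPP2 against HSC in KO gave 8 without the low-count filter (6.6% of all genes) and 15 without those 2 libraries (9.64%). Without them the median difference of KO effects was -0.02814 for MPP2 minus HSC and 0.12 for MPP1 minus HSC, the second with the opposite sign. Without single libraries, the medians of KO against Het and KO against Sham in MPP2 ran from -0.01 to 0.12 and from -0.08 to 0.04, and those of the difference of KO effects from -0.52 to -0.14 (MPP2 minus HSC) and from -0.38 to 0.01 (MPP1 minus HSC). The cause was not tested.

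In no comparison with 3 pairs of same-numbered libraries did the deviations of every pair correlate above 0.1, a limit chosen for this check. All 3 correlations were above 0 for MPP2 against HSC in KO (0.22, 0.505 and 0.0294) and for KO against Het in MPP1 and in MPP2. The numbers are not taken as pairing, but the check uses a chosen limit and few pairs and cannot exclude it. A replicate block passed 6 genes in KO against Het HSC, 10 in KO against Sham HSC, 5 in MPP1 against HSC in Het, 13 in MPP2 against MPP1 in Het and 15 in MPP2 against HSC in KO. In the same order, it passed 3.38%, 3.26%, 1.1%, 11.1% and 9.54% of all genes. A block within each genotype passed 5, 12 and 15 genes in those 3 comparisons of cell types, with 1.59%, 12.3% and 11.1% of all genes.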
